A study of Mus musculus with 6 samples.

Results

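The 10 genes described here encode the switch that commits a keratinocyte to a new division cycle: the D-type cyclins Ccnd1, Ccnd2 and Ccnd3, their kinases Cdk4 and Cdk6, and the Cdk inhibitors Cdkn1b, Cdkn1c, Cdkn2a, Cdkn2b and Cdkn2c. They were taken from the deposited gene table by symbol, with Cdkn1a left out of the set, and each of the 10 symbols matched 1 of the 45513 Ensembl identifiers. All 10 passed the filter on low counts and so stood among the 15513 genes tested. Cdkn2a passed it only through the knockout libraries: all 3 of them reached the minimum, but not all 3 controls.

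The libraries were made from keratinocytes isolated from mouse skin and came from 3 knockout and 3 control mice on a C57BL/6 background. The knockout mice were Lama3flox/flox/K14-CreERT, with loxP sites around exons 50 to 53 of Lama3 on both alleles and a tamoxifen-dependent Cre driven by the keratin 14 promoter, which is active in basal keratinocytes. The controls were Lama3wt/flox with the same K14-CreERT per the design text, although their genotype label reads wild type. Cre was switched on with chow holding 400 mg of tamoxifen citrate per kg; the design text does not say outright whether the controls ate it, so a part of tamoxifen in the differences below was not tested. The knockout skin progressively lost the laminin built with the Lama3 chain, an anchor of basal cells on the basement membrane. The sources used here give neither age, nor sex, nor the time after tamoxifen. Cre acts in keratin 14 cells, so other cells in the preparation keep Lama3.

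As background, cyclin D binds Cdk4 or Cdk6, and the pair phosphorylates the retinoblastoma protein so that E2F factors can turn on the genes of DNA synthesis. INK4 inhibitors (Cdkn2a, Cdkn2b, Cdkn2c) bind Cdk4 and Cdk6 and keep D cyclins off them. Cip/Kip inhibitors (Cdkn1b, Cdkn1c) block Cdk2 complexes and can also help cyclin D and Cdk4 to assemble. In skin, basal keratinocytes and hair matrix cells divide, and cells leave the cycle as they move into the upper layers.

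Library totals lay between 20126395 and 28473479 counts, so that 1 count stood for 0.0349 to 0.0476 CPM (counts scaled to a common library size, with TMM factors). Lama3 was lower in all knockout libraries, at 79.2 to 98.8 CPM against 114 to 142 CPM in controls. Xist and Ddx3y marked knockouts 1 and 2 and control 1 as female and knockout 3 and controls 2 and 3 as male. Keratinocyte markers were abundant, with all 11 detected in every library and a summed level of 48263 to 67228 CPM in knockouts and 33274 to 40395 CPM in controls. Of these 11, 4 were called higher and 1 lower. Higher were the differentiation keratins Krt1 (3.41-fold) and Krt10 (2.23-fold), the desmosome gene Dsp (2.19-fold) and the integrin gene Itgb4 (1.86-fold). The basal and bulge keratin Krt15 was lower (log2 fold change -0.93). The 6 not called were Krt5 (log2 fold change -0.15), Krt14 (0.15), Trp63 (0.04), Itga6 (0.24), Sfn (0.36) and Perp (0.45). Of 17 hair shaft and sheath markers tested 13 were called lower and 1 higher, and their sum was 189 to 257 CPM in knockouts and 373 to 575 CPM in controls, with Krt72, Krt33b, Krt34, Krt35 and Krt86 at 0 in at least 1 library. Of 13 T cell markers tested 11 were called lower and 1 higher (165 to 227 CPM in knockouts, 240 to 476 CPM in controls), with Ptprcap at 0 in every library. Melanocyte markers (6 of 8 lower, 55.5 to 60.5 against 87.0 to 226 CPM in controls), sebaceous gland markers (5 of 10 lower, 2242 to 2953 against 2651 to 4065 CPM in controls) and fibroblast markers (4 of 12 lower, 227 to 251 against 316 to 426 CPM in controls) were also lower or mixed. Langerhans and myeloid markers were called in both directions (5 higher and 2 lower of 15 tested, 1031 to 2271 CPM in knockouts and 709 to 1336 CPM in controls, Csf3r at 0 in at least 1 library). S100a8 averaged 384 ± 303 CPM in knockouts and 8.87 ± 8.44 CPM in controls, and S100a9 487 ± 375 CPM in knockouts and 9.19 ± 6.81 CPM in controls (SD, n = 3 each). Without these 2 genes the myeloid sum was 723 to 887 CPM in knockouts and 674 to 1329 CPM in controls. Ptprc and Cd207 were called lower, while C1qa, C1qb and Cxcr2 were called higher (log2 fold changes 2.06, 1.66 and 4.55). Endothelial markers summed to 2.79 to 3.12 CPM in knockouts and 5.59 to 6.95 CPM in controls, with Cdh5, Emcn and Cldn5 at 0 in at least 1 library and 1 of the 3 tested called lower. Mitochondrial genes took 2.53% to 4.32% of counts in knockouts and 4.87% to 9.96% in controls. The part of these cells and of this share in the values below was not tested. In such bulk libraries fewer cells of a type and less RNA per cell cannot be told apart.

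Among the 10 genes 5 were called higher in knockouts (Ccnd1, Ccnd3, Cdkn1c, Cdkn2a, Cdkn2b), 1 was called lower (Cdk4) and 4 were not called (Ccnd2, Cdk6, Cdkn1b, Cdkn2c). Genes were called at an adjusted p below 0.05. Unless another tool is named, adjusted p below are from the quasi-likelihood test of edgeR, corrected after Benjamini and Hochberg across every gene in the fit. Over all genes tested 17.4% were called higher and 18.8% lower, 36.2% in either direction. Of the genes called, 48.0% were higher, against 30.6% with upper-quartile factors. The median log2 fold change (knockout over control) of the 10 genes was 0.35, beside -0.02 over all genes tested. The knockout libraries lay wholly above the controls for 5 of the 10 and wholly below for 1, beside 25.2% and 26.5% (51.7% together) over all genes tested.

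**Figure D1:**
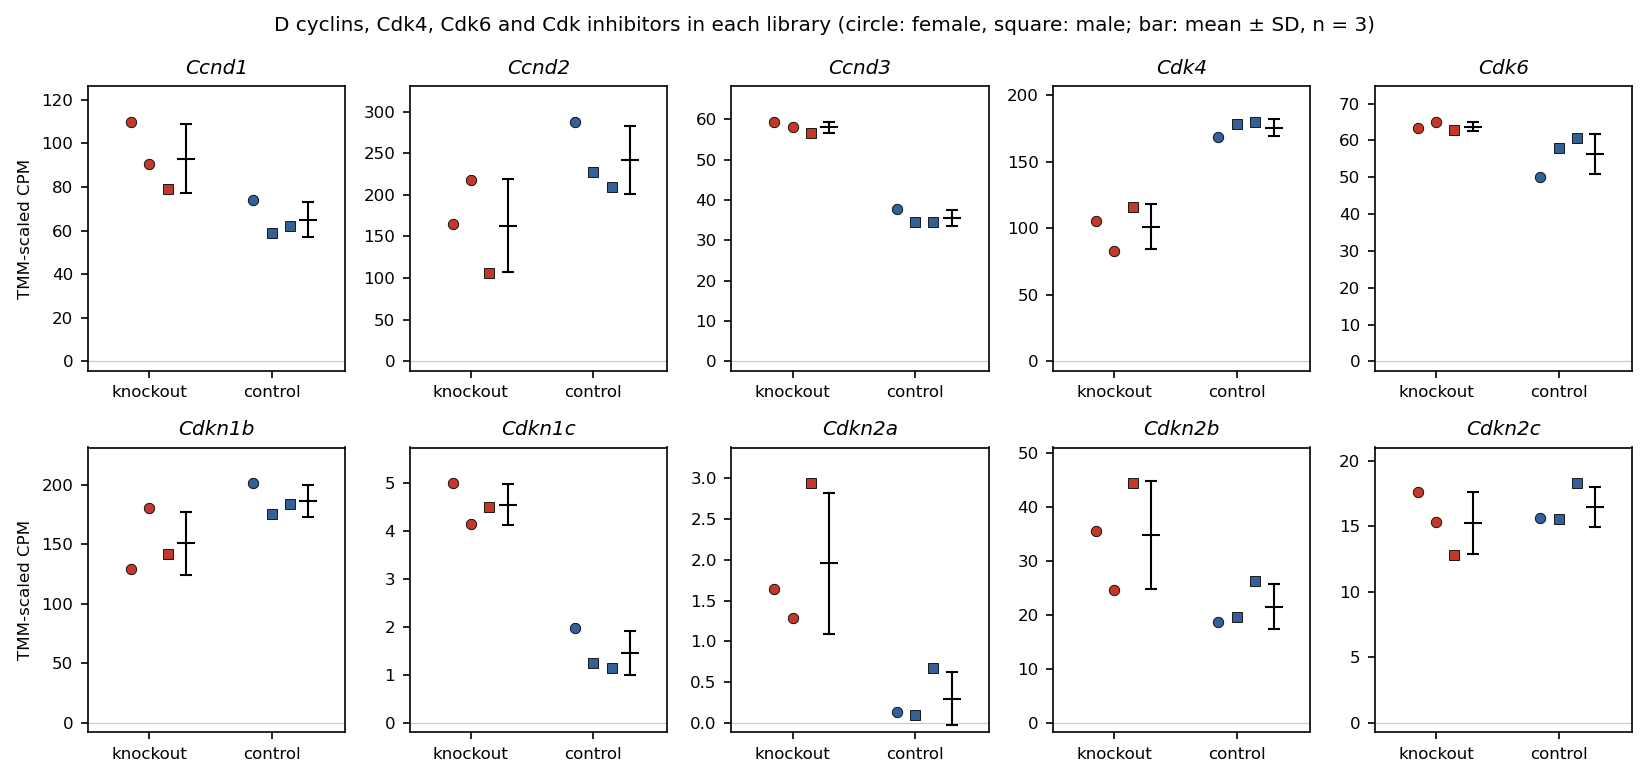
TMM-scaled CPM (vertical axes, 1 scale per gene) of the 10 genes in each knockout and control library, with the mean and SD of 3 libraries beside the points. Ccnd1, Ccnd3, Cdk4, Cdk6, Cdkn1c and Cdkn2a show the knockouts wholly apart from the controls, while Ccnd2, Cdkn1b, Cdkn2b and Cdkn2c overlap.

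The 3 D cyclins did not move together. Ccnd3 (chromosome 17, 47505051 to 47599691, plus strand, GRCm38 throughout) showed the tightest separation, with 59.4, 58.1 and 56.6 CPM in knockouts 1 to 3 against 37.9, 34.5 and 34.5 CPM in controls 1 to 3. The lowest knockout thus stood well above the highest control, and both groups varied by only a few percent. Its log2 fold change was 0.70 (SE 0.10, adjusted p = 0.00287), a 1.63-fold rise, and it was called in all 16 alternative fits.

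Ccnd1 (chromosome 7, 144929931 to 144939925, minus strand), the D cyclin best known as a target of growth factor and Wnt signals, was measured at 109.8, 90.3 and 78.8 CPM in knockouts and at 74.0, 58.9 and 62.1 CPM in controls. The groups did not overlap, but knockout 3 lay close to control 1. The log2 fold change was 0.52 (SE 0.15, adjusted p = 0.0315), or 1.43-fold. This call was lost without knockout 1 (adjusted p = 0.0989), knockout 2 (0.0631), control 2 (0.0761) or control 3 (0.0866) and with upper-quartile factors (0.0838).

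Ccnd2 (chromosome 6, 127125162 to 127152193, minus strand), a D cyclin also used by lymphoid cells, pointed the other way without being called. It held 165, 217 and 106 CPM in knockouts and 287.5, 228 and 209.0 CPM in controls, so that knockout 2 fell between controls 2 and 3. The log2 fold change was -0.57 (SE 0.26, 95% confidence interval -1.16 to 0.02, adjusted p = 0.115). Split by sex, the females held 165 and 217 CPM in knockouts against 287.5 CPM in the control, and the males 106 CPM in the knockout against 228 and 209.0 CPM in controls, with no overlap within either sex. With sex as a covariate the log2 fold change was -0.82 (adjusted p = 0.0150), and without knockout 2 it was -0.83 (adjusted p = 0.0443).

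Summed per kilobase of merged exons, the D cyclins had close mean levels in both groups, with overlap, while their shares differed in every library. The sum was 47.6, 48.9 and 34.5 CPM per kb in knockouts (mean 43.6 ± 7.99, SD, n = 3) and 50.6, 40.7 and 39.3 CPM per kb in controls (43.5 ± 6.15). Ccnd2 made up 36.9%, 47.2% and 32.7% of this sum in knockouts against 60.4%, 59.6% and 56.5% in controls. The share of Ccnd1 was 48.9%, 39.2% and 48.6% in knockouts and 31.0%, 30.8% and 33.5% in controls. For Ccnd3 it was 14.2%, 13.5% and 18.7% in knockouts and 8.54%, 9.66% and 9.99% in controls. All 3 shares were without overlap between the groups, and they do not depend on how libraries are scaled against each other. Ccnd2 was the leading D cyclin per kilobase in every control and in knockout 2, and Ccnd1 in knockouts 1 and 3. An exact permutation test of 3 libraries against 3 cannot give a p below 0.1, so no call is made on any share or ratio here.

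**Figure D2:**
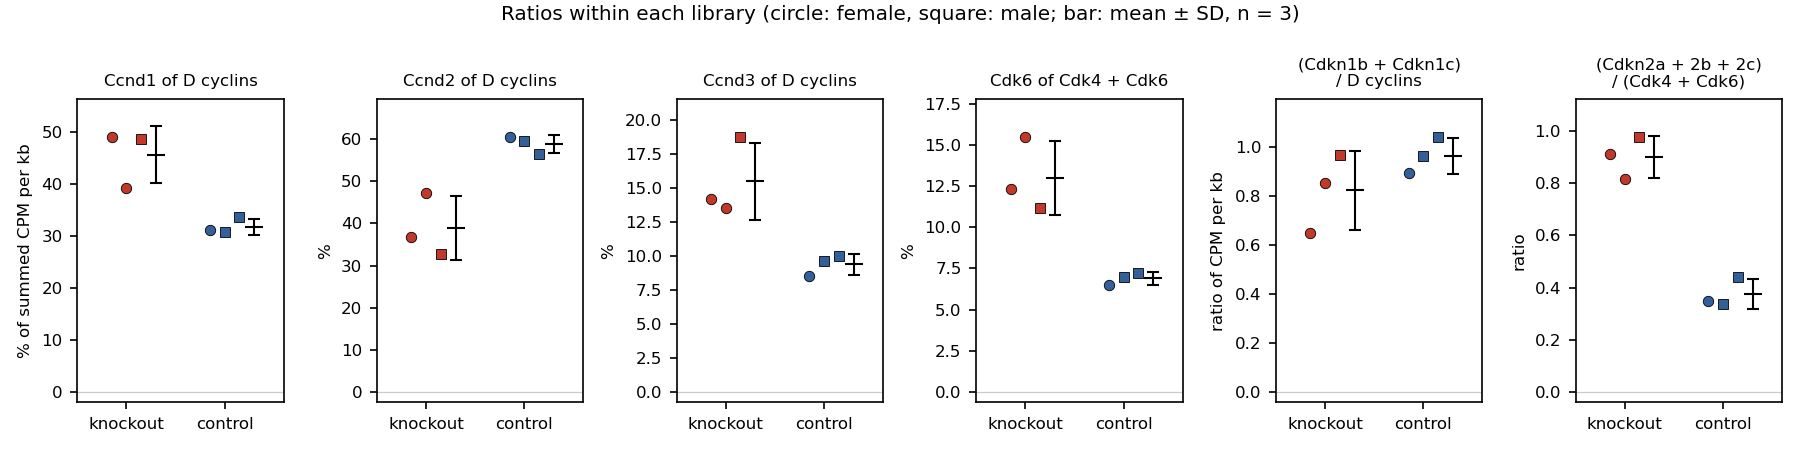
Ratios formed within each knockout and control library from CPM per kilobase of merged exons, in percent for the first 4 panels and as plain ratios for the last 2, with mean and SD of 3 libraries. The Ccnd2 share lies at 32.7% to 47.2% in knockouts and 56.5% to 60.4% in controls. The ratio of Cdkn2a, Cdkn2b and Cdkn2c to Cdk4 plus Cdk6 lies at 0.815 to 0.975 in knockouts and 0.337 to 0.441 in controls.

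Of the kinases, Cdk4 fell and Cdk6 was not called. Cdk4 (chromosome 10, 127063534 to 127067920, plus strand) held 105, 82.6 and 116 CPM in knockouts and 168, 179 and 180.0 CPM in controls. Every knockout stood below every control by more than the spread of either group. The log2 fold change was -0.79 (SE 0.14, adjusted p = 0.00623), so that controls held 1.73 times the knockout level, and the call stood in all 16 alternative fits. Cdk6 (chromosome 5, 3341485 to 3531008, plus strand), its close relative, was measured at 63.5, 65.0 and 62.8 CPM in knockouts and at 50.2, 57.9 and 60.6 CPM in controls. Its libraries did not overlap either, but the log2 fold change of 0.18 (SE 0.11, 95% confidence interval -0.07 to 0.43) had an adjusted p of 0.217.

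Within a library, Cdk6 accounted for 12.3%, 15.5% and 11.1% of Cdk4 plus Cdk6 per kilobase in knockouts, against 6.47%, 7.002% and 7.25% in controls. Cdk4 therefore stayed the main kinase transcript in all 6 libraries. The sum of both kinases was 35.7 ± 5.18 CPM per kb in knockouts and 58.1 ± 2.35 CPM per kb in controls (SD, n = 3 each).

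The promoter of Cdk4 is shown because this kinase was the only 1 of the 10 genes called lower. Its upstream sequence is also rich in E-boxes, the element bound by Myc and related factors. The letters are from RefSeq (GRCm38.p6, chr10:127063285-127063534, plus strand) and give the 250 bases before the start, 5′ to 3′, with matches to the motifs searched in capitals.
Cdk4 promoter: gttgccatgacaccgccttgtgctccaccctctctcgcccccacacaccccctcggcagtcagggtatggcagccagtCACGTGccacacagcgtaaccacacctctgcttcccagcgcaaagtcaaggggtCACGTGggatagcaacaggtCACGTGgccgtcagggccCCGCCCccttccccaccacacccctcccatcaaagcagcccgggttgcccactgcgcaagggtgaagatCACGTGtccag
The motifs searched, on both strands, were the E-box CACGTG, the cAMP response element TGACGTCA, the AP-1 element TGACTCA, the GC box GGGCGG (read as CCGCCC on the other strand), the CCAAT box CCAAT, and the E2F element in the forms TTTCCCGC and TTTGGCGC. Cdk4 held 4 E-boxes, the nearest of which ends 6 bases before the start (a motif that abuts the start counts as 1), and 1 GC box. Of 32817 windows of the same length before RefSeq starts 6.02% held an E-box, and 7 windows (0.0213%) held 4 or more. The Cdk4 window is 1 of these 7, and the cut-off of 4 equals its own count. Cdk6 held 1 E-box. A match describes these letters and says nothing of binding in these cells.

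Of the Cip/Kip inhibitors, Cdkn1c rose and Cdkn1b was not called. Cdkn1c (chromosome 7, 143458339 to 143461050, minus strand) encodes p57Kip2, is expressed from the maternal allele, and is linked with withdrawal from the cycle. It had 118, 119 and 124 counts in knockouts (4.99, 4.15 and 4.50 CPM) and 46, 26 and 29 counts in controls (1.98, 1.24 and 1.14 CPM). The knockouts lay close together and all above the controls. The log2 fold change was 1.64 (SE 0.28, adjusted p = 0.00528), a 3.12-fold rise from a low level, and it was called in all 16 alternative fits.

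Cdkn1b (chromosome 6, 134920401 to 134925513, plus strand) encodes p27Kip1, an inhibitor whose protein level is set largely by degradation. It held 129.5, 181 and 142 CPM in knockouts against 201, 175 and 183 CPM in controls. Knockout 2 lay inside the controls and the other 2 knockouts below them. The log2 fold change of -0.31 (SE 0.15, 95% confidence interval -0.65 to 0.03, adjusted p = 0.136) was not called, although it was with upper-quartile factors (adjusted p = 0.0435). Per kilobase Cdkn1b was far above Cdkn1c in each library. Their sum over the D cyclins was 0.823 ± 0.161 in knockouts and 0.964 ± 0.0731 in controls (SD, n = 3 each), with overlap. This sum does not hold Cdkn1a, the Cip/Kip gene left out of the set. Cdkn1a stood above Cdkn1b, at 170 ± 21.6 CPM per kb in knockouts and 102 ± 6.7 CPM per kb in controls.

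The INK4 genes split, with Cdkn2a and Cdkn2b higher and Cdkn2c not called. Cdkn2a (chromosome 4, 89274471 to 89294653, minus strand) encodes p16Ink4a and, from another first exon and reading frame, p19Arf, a stabiliser of p53. Gene counts join both products. It had 39, 37 and 81 counts in knockouts and 3, 2 and 17 counts in controls, or 1.65, 1.29 and 2.94 CPM against 0.129, 0.0952 and 0.668 CPM in controls. All knockouts stood above all controls, and knockout 3 and control 3 were each the highest of their group. The fitted log2 fold change was 2.65 (SE 0.67, 95% confidence interval 1.11 to 4.19, adjusted p = 0.0191), a 6.29-fold rise whose size is poorly fixed by the few control counts. Without control 3 it was 4.06, and without control 1 the call was lost (2.30, adjusted p = 0.0571).

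Cdkn2b (chromosome 4, 89306299 to 89311039, minus strand), which lies next to Cdkn2a and encodes p15Ink4b, an inhibitor induced by TGF-beta in keratinocytes, was the more abundant of this pair. It held 35.6, 24.6 and 44.4 CPM in knockouts and 18.7, 19.6 and 26.4 CPM in controls, with knockout 2 below control 3. Its log2 fold change was 0.69 (SE 0.23, adjusted p = 0.0487), or 1.62-fold. The call stood at the edge of the threshold and was lost in 7 of 16 alternative fits: without knockout 1 (adjusted p = 0.109), knockout 3 (0.118), control 1 (0.131) or control 2 (0.122), with upper-quartile factors (0.109), with a filter of 1 CPM in 3 libraries (0.0527) and with limma-voom (0.0654). Cdkn2c (chromosome 4, 109660876 to 109667189, minus strand), which encodes p18Ink4c, held 17.6, 15.3 and 12.8 CPM in knockouts and 15.6, 15.6 and 18.3 CPM in controls. These groups overlapped, with a log2 fold change of -0.11 (SE 0.16, 95% confidence interval -0.48 to 0.25, adjusted p = 0.594). Cdkn2d, which encodes the remaining INK4 protein p19Ink4d and was not in the set, was likewise not called (-0.07, SE 0.14, adjusted p = 0.728).

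The sequences before the Cdkn2a and Cdkn2b starts are shown because these neighbours were both called higher, while no motif searched was found in the windows of both. They are from RefSeq (GRCm38.p6, minus strand, 250 bases each, 5′ to 3′, same motifs in capitals). The distal Cdkn2a window, before the p19Arf exon, is chr4:89294620-89294869, the proximal one, before the p16Ink4a exon, is chr4:89282193-89282442, and that of Cdkn2b is chr4:89311033-89311282.
Cdkn2a distal promoter: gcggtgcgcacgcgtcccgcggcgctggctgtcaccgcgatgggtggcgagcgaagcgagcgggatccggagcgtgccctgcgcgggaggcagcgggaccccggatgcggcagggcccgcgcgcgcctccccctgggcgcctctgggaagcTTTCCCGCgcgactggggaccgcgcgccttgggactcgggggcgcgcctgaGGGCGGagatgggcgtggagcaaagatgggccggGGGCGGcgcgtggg
Cdkn2a proximal promoter: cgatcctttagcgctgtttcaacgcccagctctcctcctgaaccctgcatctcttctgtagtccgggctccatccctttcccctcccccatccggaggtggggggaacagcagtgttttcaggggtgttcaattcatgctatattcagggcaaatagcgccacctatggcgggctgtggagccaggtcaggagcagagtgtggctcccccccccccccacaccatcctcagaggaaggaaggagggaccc
Cdkn2b promoter: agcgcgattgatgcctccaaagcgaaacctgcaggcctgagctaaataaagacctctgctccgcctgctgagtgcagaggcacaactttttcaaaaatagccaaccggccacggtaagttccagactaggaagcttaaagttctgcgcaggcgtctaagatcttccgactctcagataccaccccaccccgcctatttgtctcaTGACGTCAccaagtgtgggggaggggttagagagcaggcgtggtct
The distal Cdkn2a window held 1 E2F element, 92 bases before the start and found in 1.3% of all windows, and 2 GC boxes, found in 32.7%. None of the motif letters searched was in the proximal Cdkn2a window. Cdkn2b held 1 cAMP response element, 39 bases before the start and found in 1.55% of all windows. In all, 7 of the 10 genes had a RefSeq promoter entry, with 10 starts between them, and the AP-1 letters, found in 4.46% of all windows, were in none of these 10.

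Set against the kinases they bind, the INK4 transcripts of the set stood higher in the knockouts. The sum of Cdkn2a, Cdkn2b and Cdkn2c over Cdk4 plus Cdk6, per kilobase, was 0.909, 0.815 and 0.975 in knockouts and 0.350, 0.337 and 0.441 in controls. The lowest knockout ratio was thus well above the highest control ratio, and Cdkn2b and Cdk4 contributed most of the difference. The INK4 sum itself was 33.5, 24.5 and 39.2 CPM per kb in knockouts and 19.4, 19.96 and 26.4 CPM per kb in controls, with knockout 2 below control 3.

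Per kilobase of merged exons the order of levels also differed between the groups. The ranks depend on this length and were not recomputed with the longest transcript. That is 2053 bases for Cdk4 against 3249 merged, 3858 against 8775 for Ccnd3, and 4552 in both for Cdkn1b. In knockouts Cdkn1b (33.1 ± 5.89 CPM per kb), Cdk4 (31.2 ± 5.27), Cdkn2b (25.1 ± 7.15), Ccnd1 (19.7 ± 3.32) and Ccnd2 (17.3 ± 5.92) formed a chain in which each overlapped the next (SD, n = 3). In controls Cdk4 (54.1 ± 1.97 CPM per kb), Cdkn1b (41.0 ± 2.91), Ccnd2 (25.7 ± 4.35) and Cdkn2b (15.5 ± 3.04) each stood apart from the next, and Cdkn2b overlapped Ccnd1 (13.8 ± 1.69). Ccnd3 (6.61 CPM per kb in knockouts, 4.06 in controls), Cdkn2c (5.67 and 6.14) and Cdk6 (4.56 and 4.02) followed in both groups. Cdkn1c (2.23 and 0.712) and Cdkn2a (1.67 and 0.254) came last and overlapped each other in both.

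**Figure D3:**
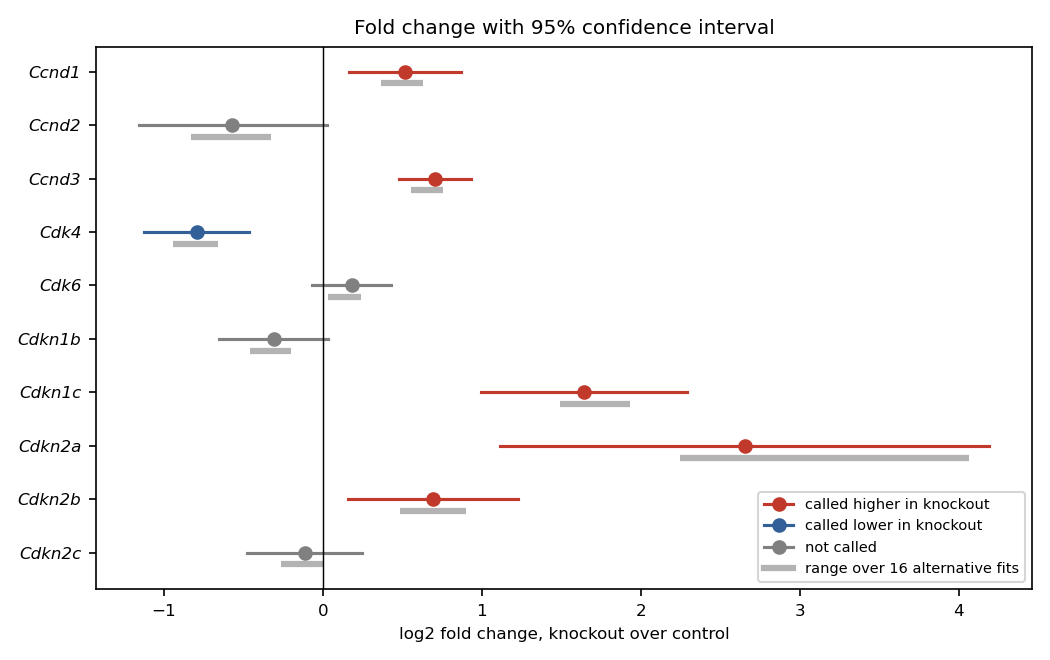
Log2 fold change, knockout over control, of the 10 genes (points) with 95% confidence intervals (lines) and the range over 16 alternative fits (grey bars). The range of the grey bars crosses 0 only for Cdkn2c, and the interval of Cdkn2a, 1.11 to 4.19, is the widest.

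All 6 called genes kept their direction, without overlap, within the females and within the males. So did Ccnd2, Cdk6 and Cdkn1b, which were not called, so this trait does not set the called genes apart. The share of all genes tested that do so was not computed. For Cdk4 the log2 ratio of mean CPM was -0.84 in females and -0.63 in males, and for Ccnd3 it was 0.63 in females and 0.72 in males. For Cdkn1c it was 1.21 in females and 1.92 in males. Each sex held 1 group with a single library, so no test was made within a sex. The calls of all 10 genes were the same when the scaling left out marker genes of other cell types and mitochondrial genes.

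The profiles most like those of the called genes were sought among 10693 named genes with a mean of at least 5 CPM, as the root mean square difference of centred log2 CPM over the 6 libraries. Closest to Ccnd3 were Kdsr (0.04) and Gfod1 (0.04), and to Cdk4 Pyurf (0.04) and Pglyrp4 (0.06). Ccnd1 lay nearest to Map9 (0.06) and Gdpd3 (0.06), and Cdkn2b to Mpp7 (0.08) and Aspn (0.08). Cdkn1c lay nearest to Trex2 (0.12) and Pknox2 (0.12). For Cdkn2a Cdc14b was nearest (0.13), with a smaller log2 fold change than its own. The 0.5 CPM added before the log shrinks the profile of a gene as low as Cdkn2a (0.0952 to 2.94 CPM).

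Exons of a gene on the opposite strand overlap several of the 10, and whether counting used the strand was not given in the sources used here. LTO1 shares 23.4% of the Ccnd1 exon bases and was not called (log2 fold change 0.24, SE 0.12, adjusted p = 0.167). Tspan31 shares 19.7% of those of Cdk4 and was not called (-0.23, SE 0.10, adjusted p = 0.112). Bysl, a ribosome assembly factor, shares 4.11% of those of Ccnd3 and was called higher (0.72, SE 0.18, adjusted p = 0.0173). Gm44732 shares 30.7% of those of Cdkn1c and had no row among the deposited counts. Reads from such shared bases cannot be told apart between the partners.

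The partners of this switch had calls in both directions. Of 28 G1/S partners 5 were called higher, 8 lower and 15 not called, with a median log2 fold change of -0.15, beside 17.4% higher, 18.8% lower and a median of -0.02 over all genes tested. The number higher was thus near the share over all genes. E2f1, an activating E2F factor, showed the smallest p, with 3.97, 3.24 and 3.59 CPM in knockouts against 7.96, 11.1 and 10.2 CPM in controls. This was a log2 fold change of -1.44 (SE 0.20, adjusted p = 0.00283). The activating factors E2f2 (-0.35, adjusted p = 0.221) and E2f3 (-0.11, adjusted p = 0.793), named after their values were seen, were not called. Ccne2, a cyclin E that drives Cdk2, fell by 1.16 on the log2 scale (SE 0.25, adjusted p = 0.0109), and E2f6, a repressive E2F, fell by 0.63 (SE 0.14, adjusted p = 0.0116). E2f6 was not called without control 3 (adjusted p = 0.0502). Cdkn1a, which encodes p21Cip1, rose by 0.74 (SE 0.16, adjusted p = 0.0105).

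The other 4 partners called higher, named after their values were seen, were the pocket protein genes Rb1 (0.52, SE 0.12) and Rbl2 (0.44, SE 0.14), the repressor-type E2F gene E2f4 (0.45, SE 0.11) and Lin54, a DREAM complex subunit (0.54, SE 0.13). The remaining pocket protein gene, Rbl1 (-0.48, SE 0.12, adjusted p = 0.0185), and E2f5, another repressor-type E2F gene (-0.61, SE 0.16, adjusted p = 0.022), also named afterwards, were called lower, so that both kinds of gene had calls in both directions. Rbl1 was not called without knockout 2 (adjusted p = 0.0569) or control 3 (0.0589), and E2f5 without knockout 1 (0.0776), control 1 (0.0715) or control 3 (0.0553) or with the replicate number as a block (0.0504). The 3 subunits of the Cdk-activating kinase, which phosphorylates Cdk4 and other Cdks and was also named afterwards, were all called lower: Cdk7 (-0.50, SE 0.13), Ccnh (-0.51, SE 0.15) and Mnat1 (-0.56, SE 0.15). Upper-quartile factors ended the calls of Rb1 (adjusted p = 0.0530), Rbl2 (0.129) and E2f4 (0.0566). Without control 3 none of the calls of Rbl2 (adjusted p = 0.127), E2f4 (0.0534), Lin54 (0.0532), Cdk7 (0.0672), Ccnh (0.0692) and Mnat1 (0.0569) stood. Those of Cdk7, Ccnh and Mnat1 were also lost without knockout 1, knockout 2 or control 1 (adjusted p of 0.0622 to 0.107), that of Ccnh without knockout 3 (0.0589), and that of Rbl2 without any 1 library other than knockout 3 (0.0699 to 0.127) or with sex as a covariate (0.0768).

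Genes of D cyclin and p27 turnover, listed together with Foxo transcription factors, also had calls in both directions. Of these 12 genes 4 were higher, 3 lower and 5 not called, with a median of 0.17, beside 17.4% higher and 18.8% lower over all genes tested. Those higher were Foxo4 (0.84, SE 0.14) and Foxo3 (0.64, SE 0.12), forkhead factors that activate Cdkn1b, Usp2 (1.29, SE 0.28), a deubiquitinase of cyclin D1, and, named after its value was seen, Ambra1 (0.37, SE 0.10), the adaptor of a D cyclin ubiquitin ligase. Foxo1, also named afterwards, was not called (-0.225, SE 0.11, adjusted p = 0.141), although its knockouts lay wholly below its controls. Those lower were Cks1b (-0.89, SE 0.14), the cofactor with which SCF-Skp2 degrades p27, and, named afterwards, Skp2 (-0.77, SE 0.22) and Fbxo4 (-0.69, SE 0.16). With the replicate number as a block Skp2 was not called (adjusted p = 0.062), nor without knockout 3 (0.0716). Without knockout 2 or control 3 only Cks1b of these 3 was called, and Ambra1 was lost without either of them, knockout 1 or control 1 (0.0596 to 0.103) and with upper-quartile factors (0.117).

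Targets of E2F in S phase were largely lower, with 11 of 18 called lower and 7 not called and a median of -0.68, beside 18.8% lower over all genes tested. Gins2, a subunit of the replicative helicase, showed a log2 fold change of -1.73 (SE 0.21, adjusted p = 0.00175), and Tyms, thymidylate synthase, one of -1.52 (SE 0.17). Tk1, thymidine kinase, was lower as well (-1.50, SE 0.27). The summed level of the list was 517, 410 and 426 CPM in knockouts and 637, 707 and 714 CPM in controls. Mki67, the proliferation marker, held 55.4, 25.3 and 31.5 CPM in knockouts against 63.0, 89.6 and 125 CPM in controls (log2 fold change -1.31, SE 0.34, adjusted p = 0.0223). Its call was lost without knockout 2, knockout 3, control 2 or control 3 (adjusted p of 0.0548 to 0.0707), and with no filter on low counts (0.0993). Hair shaft and T cell markers, given above, were lower in the same libraries.

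Polycomb genes and other regulators of the INK4 locus were called at about the rate of all genes tested (36.2% in either direction), with 5 of 19 tested higher, 2 lower and 12 not called and a median of 0.06. Ezh2, the histone H3 methyltransferase that silences Cdkn2a in dividing cells, was lower (-0.59, SE 0.12, adjusted p = 0.00866), while its relative Ezh1 was higher (0.63, SE 0.15, adjusted p = 0.0168). The Polycomb subunit genes Cbx7 (0.77, SE 0.18) and Jarid2 (0.41, SE 0.10) were higher, as were Cbx2 (0.43, SE 0.13) and the H3 demethylase gene Kdm6b (0.38, SE 0.11), both named after their values were seen. The other gene called lower, also named afterwards, was Ets1 (-0.72, SE 0.20), not called without knockout 1, knockout 2, control 1 or control 3 (adjusted p of 0.0635 to 0.0848). Bmi1, a Polycomb repressor of this locus likewise named afterwards, was not called (-0.02, SE 0.14, adjusted p = 0.913). Without control 3 only Cbx7 of those higher was called, and with upper-quartile factors 2 were. Jarid2, Cbx2 and Kdm6b were also lost without knockout 1 or control 1 (adjusted p of 0.0578 to 0.0984), Cbx2 without knockout 2 (0.106) or control 2 (0.057) or with sex as a covariate (0.0721), and Kdm6b without knockout 3 (0.0596) or with the replicate number as a block (0.0559).

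**Figure D4:**
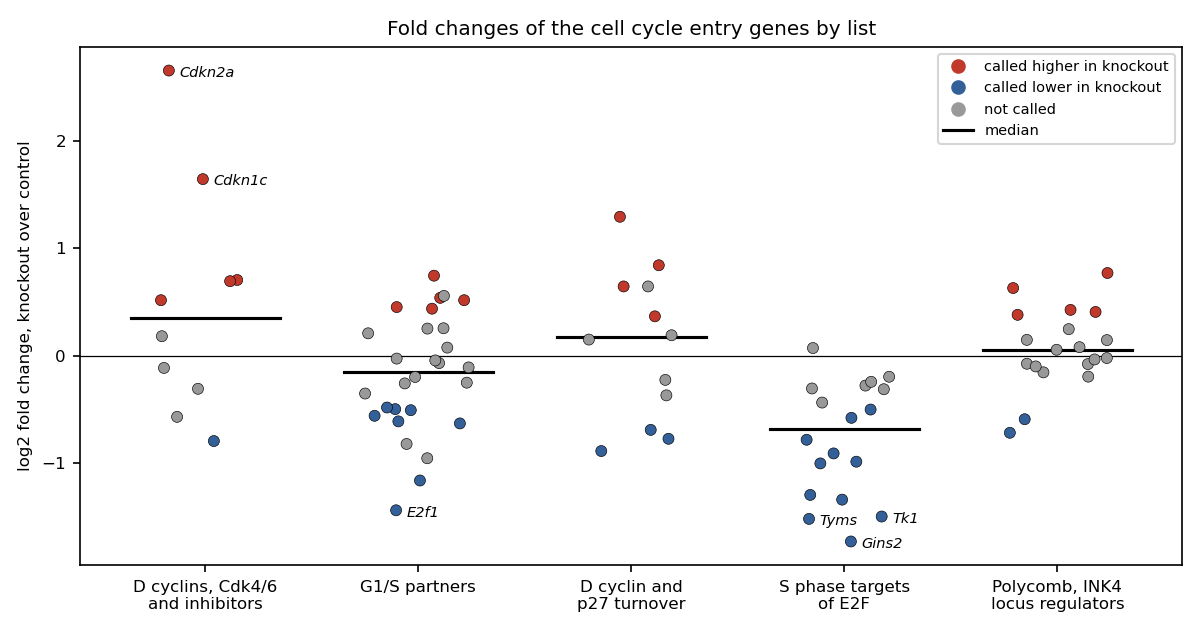
Log2 fold change, knockout over control (vertical axis), of the 10 genes and of the tested members of 4 pathway lists, with called genes in colour and the median of each list as a bar. S phase targets of E2F lie mostly below 0 (median -0.68), while the other lists hold calls in both directions.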

How the data were processed

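Counts were deposited by the authors as 1 table of whole-number counts per Ensembl gene, with a column for each of 6 libraries. The submitters' processing notes name the build GRCm38 and the tools featureCounts 1.4.6, TopHat 1.3.3 and Cuffdiff 1.3.0, with no order or settings given in the sources used here, nor the annotation release, strand use or handling of multiply mapped reads. Of 45513 identifiers 44671 were given a symbol through GENCODE M21 (GRCm38), which also gave positions and merged exon lengths.

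All 6 libraries entered 1 fit per gene with group as the only term, in edgeR 4.0.16 (R 4.3.3): filterByExpr, TMM factors, robust quasi-likelihood test, Benjamini-Hochberg adjustment over 15513 genes. Fold changes are log2 values, knockout over control, and SE is their standard error. Each library was 1 mouse, and totals lay between 20126395 and 28473479 counts, which sets counting error only. Levels are compared between genes as CPM per kilobase of merged exons.

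The 10 genes, the 4 pathway lists, the 8 marker lists and the tests were chosen with earlier results of these data known. Of 188 list entries 187 were found. Beside the 10 genes, Cdkn1a, Cdkn2d, Mki67 and Lama3, the 4 called genes with the smallest p of each pathway list were named, and the 2 closest profiles of each called gene (profiles as log2 of CPM + 0.5). Of the genes this rule gives, 2 are not reported here. Others are said to be named after their values were seen. The fit was tested on simulated data in which far fewer genes changed than were called here. That test cannot judge the scaling between libraries. The alternatives were other scalings (DESeq2 size factors, upper quartile, without marker and mitochondrial genes), other filters, DESeq2 1.42.0, limma-voom (limma 3.58.1), a fit without robust estimation, sex as a covariate, a block for the replicate number, and each library left out. Ratios were recomputed without length, with the longest transcript, and with each library left out.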

Additional observations from a re-analysis of the deposited data

Results flagged for a closer look

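Cdkn2d, which encodes p19Ink4d, was lower in female and higher in male knockouts than in controls of the same sex: in females it held 14.8 and 17.9 CPM in knockouts against 19.7 CPM in the control, and in males 18.6 CPM in the knockout against 17.6 and 16.5 CPM in controls. The log2 ratio of knockout to control means was -0.27 in females and 0.13 in males, a difference (male minus female) of 0.40. The difference between the sexes was not tested.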

How the results depend on the processing

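Of the 10 genes, Ccnd3, Cdk4, Cdkn1c and Cdk6 kept their direction and their side of the threshold in all 16 alternative fits. Left out in turn, single libraries gave 3 to 4 of the 10 called higher and 1 to 2 lower, 1586 to 2754 of all genes higher and 1714 to 2771 lower, 2 to 6 G1/S partners higher and 2 to 8 lower, 1 to 3 turnover genes lower, and 1 to 4 INK4 regulators higher and 1 to 2 lower. The log2 fold change of Cdkn2c ranged over -0.219 to 0.005, turning sign without knockout 3 (adjusted p = 0.983), and that of Cdkn2d over -0.127 to 0.035, turning sign without knockout 1 or control 1 (0.008). Neither gene was called in these fits, and the cause was not tested.

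With upper-quartile factors, 3 of the 10 genes were higher and 2 lower, with 1756 genes higher over all (30.6% of those called, against 48.0%), 2 G1/S partners higher, 5 turnover genes lower and 2 INK4 regulators higher. These factors moved the median of all genes to -0.17, against -0.02 with TMM factors (log2). With sex as a covariate 2 of the 10 genes were lower, Ccnd2 being added. The replicate numbers did not pair the libraries: the deviations of same-numbered libraries from their group means correlated at -0.16, -0.08 and 0.43. With the replicate number as a block, 5 of the 10 were higher and 1 lower, and 2422 genes were higher and 2701 lower over all. All 6 ratios kept their direction in all 8 alternatives each. Where the groups of a ratio did not overlap, leaving out a library could not have changed its direction. Depth limits Cdkn2a most, with 2 to 17 counts in controls. The p-values measure only the spread between these 6 mice.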
